A study of Mus musculus with 40 samples.

Results

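Naive CD4 T cells of wild-type mice were described by the genes and regions that carried 2 histone marks, H3K4me1 and H3K9me3, and by the RNA level of those genes. The members were 41665 H3K4me1 regions and 9659 H3K9me3 regions in the authors' naive wild-type peak lists. A gene was a member when its span, the stretch between its annotated start and end, shared at least 1 bp with a region. Of 31698 genes placed on the genome, 15480 held a mark: 2651 held both, 482 held H3K9me3 only, 12347 held H3K4me1 only, and the remaining 16218 held neither. The groups used here make up 8 of 40 samples for naive wild type, 4 of RNA and 2 of chromatin for each mark.

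H3K4me1, a single methyl group on lysine 4 of histone H3, marks enhancers and the flanks of active promoters, and in T cells it outlines genes of lineage identity. H3K9me3, 3 methyl groups on lysine 9, marks silenced chromatin at repeats, at clusters of zinc finger genes and at some lineage genes. It is laid down by methyltransferases such as SETDB1, which is brought to DNA by zinc finger proteins through TRIM28, and SUV39H1. A naive T cell has matured but has not met its antigen, and it circulates in a resting state.

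All cells were CD4+ T cells of mouse spleen on the C57BL/6 background. The naive Setdb1 knockout (KO) group was labelled Setdb1-/- and culture day 0, with 3 RNA libraries and 1 H3K9me3 library. The T helper 2 (Th2) wild-type group was Setdb1+/+ at culture day 6, after activation by antibodies to CD3 and CD28 with IL-4 and an antibody to IFNgamma, followed by IL-2, with 3 RNA libraries and 2 libraries per mark. The naive wild-type (WT) group, Setdb1+/+ at culture day 0, was the base of both comparisons. The labels do not give the animals' age, how the deletion was driven, or whether replicates were separate animals, so p-values measure the spread between libraries.

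RNA values are the authors' normalised read counts, that is reads per gene divided by 1 size factor per library. They are not corrected for gene length, so levels of different genes are also given per kb of gene span. The 4 naive WT libraries held 10.0 to 18.5 M reads. When all libraries were thinned to 10.0 M reads, naive WT replicates 1 and 3 held reads for 21277 and 25556 genes, and replicates 2 and 4 for 15128 and 16203, so levels near the bottom of the scale differ between these libraries. Summed over 6 T cell markers the level was 73420 to 82025 per naive WT library, and over 7 naive T cell markers 73426 to 84636. The sums were 10.4 to 281 for 5 B cell markers, 100.0 to 268 for 6 myeloid markers, 66.1 to 159 for 4 NK cell markers, 63.0 to 467 for 6 erythroid and platelet markers, 442 to 565 for 2 CD8 markers and 1609 to 1967 for 7 memory or effector T cell markers. None of these markers was at 0 in all naive WT libraries. Setdb1 itself had 1103, 933 and 984 normalised reads in naive KO libraries, against 1336, 1366, 1325 and 1214 in naive WT libraries. The groups did not overlap, but a count over all exons does not resolve the deleted ones (log2 difference ± standard error -0.38 ± 0.11, limma, adjusted p = 0.0319, lost in 8 of 16 alternatives).

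The start windows of 5 genes that carried a mark in naive WT cells are printed first. Each runs from 250 bases before to 50 bases after a start annotated by RefSeq on GRCm38.p6 (mm10), on the gene's own strand, and capitals mark CG dinucleotides, the sites of DNA methylation. Of 22646 such windows 95.6% held at least 1 CG, and the median was 12. Hjurp, a chaperone that loads the centromeric histone, and Stag3, a cohesin subunit of meiosis, carried both marks over all 300 bases. Peg3, an imprinted gene, and Trpm8, a cold-sensing ion channel, carried H3K9me3 alone over 231 and 300 bases. An annotated start inside Lef1, a transcription factor of naive T cells, lay under H3K4me1. Peg3 and Trpm8 were chosen after their values were seen.
Hjurp, chr1:88277530-88277829, minus strand, 22 CG: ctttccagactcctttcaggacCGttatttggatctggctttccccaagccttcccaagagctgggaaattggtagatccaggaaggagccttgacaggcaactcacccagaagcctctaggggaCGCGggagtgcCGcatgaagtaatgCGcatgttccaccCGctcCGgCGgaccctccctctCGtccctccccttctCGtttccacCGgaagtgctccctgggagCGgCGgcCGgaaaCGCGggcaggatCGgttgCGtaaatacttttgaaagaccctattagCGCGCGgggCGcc
Stag3, chr5:138280259-138280558, plus strand, 30 CG: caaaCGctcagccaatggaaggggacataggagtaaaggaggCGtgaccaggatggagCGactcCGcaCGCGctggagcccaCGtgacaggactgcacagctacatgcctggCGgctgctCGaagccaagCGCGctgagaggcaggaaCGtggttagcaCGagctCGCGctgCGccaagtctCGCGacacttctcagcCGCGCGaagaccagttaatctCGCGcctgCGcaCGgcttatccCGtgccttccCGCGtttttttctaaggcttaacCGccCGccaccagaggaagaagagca
Peg3, chr7:6730370-6730669, minus strand, 13 CG: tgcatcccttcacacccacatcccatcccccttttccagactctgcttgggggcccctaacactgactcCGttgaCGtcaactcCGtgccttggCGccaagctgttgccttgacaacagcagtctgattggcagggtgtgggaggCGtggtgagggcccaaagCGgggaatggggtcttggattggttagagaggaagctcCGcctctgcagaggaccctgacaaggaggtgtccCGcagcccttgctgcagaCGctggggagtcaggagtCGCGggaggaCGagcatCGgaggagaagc
Trpm8, chr1:88306485-88306784, plus strand, 1 CG: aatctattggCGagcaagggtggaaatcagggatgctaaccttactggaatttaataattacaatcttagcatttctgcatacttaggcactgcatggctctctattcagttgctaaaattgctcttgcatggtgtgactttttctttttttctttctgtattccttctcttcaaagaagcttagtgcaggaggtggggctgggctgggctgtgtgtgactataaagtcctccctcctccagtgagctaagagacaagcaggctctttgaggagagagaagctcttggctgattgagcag
Lef1, chr3:131156044-131156343, plus strand, 5 CG: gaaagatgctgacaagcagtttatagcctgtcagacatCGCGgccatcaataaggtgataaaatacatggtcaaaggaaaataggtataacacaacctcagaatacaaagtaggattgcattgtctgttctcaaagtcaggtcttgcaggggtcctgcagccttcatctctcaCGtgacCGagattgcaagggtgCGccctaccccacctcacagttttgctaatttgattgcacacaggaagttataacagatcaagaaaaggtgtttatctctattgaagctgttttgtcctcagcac

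The 2 marks shared few bases, and each covered little of the genome. H3K9me3 regions covered 13.7 Mb, or 0.505% of the annotated chromosome span, with a median length of 900 bp, and H3K4me1 regions covered 86.3 Mb, or 3.19%, with a median of 1309 bp. Of these, 248 H3K9me3 regions (2.57%) met an H3K4me1 region, 255 H3K4me1 regions (0.612%) met H3K9me3, and together they shared 154 kb. That was 1.13% of the bases under H3K9me3, where H3K4me1 covered 3.19% of the whole span. The distance from an H3K9me3 region to the nearest H3K4me1 region had a median of 10.6 kb, and 48.3% of H3K9me3 regions met one or lay within 10 kb of it. Gene spans, which take up 46.1% of the genome, held 54.1% of H3K9me3 regions and 76.4% of H3K4me1 regions. Within 2 kb of an annotated start lay 4.27% of H3K9me3 regions and 29.4% of H3K4me1 regions. Of the few H3K9me3 regions that met H3K4me1, 79.8% lay in a gene and 16.3% within 2 kb of a start. The shares were 53.4% and 3.94% of those that did not. The former were picked by touching H3K4me1 regions, which have the shares 76.4% and 29.4%, so the contrast is no separate result.

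Long regions lay over different genes for each mark. The longest H3K9me3 region, 82.9 kb at chr1:88210001-88292900, covered 9 Ugt1a genes, which encode enzymes that conjugate drugs and bilirubin, together with Mroh2a and Hjurp. Of the next 4 by length, at 29.7 to 49.8 kb, 2 lay on chromosome 13 and 2 on chromosome 4 over Zfp982, Zfp981 and Zfp993, members of a zinc finger cluster, and neighbouring vomeronasal receptor pseudogenes. The longest H3K4me1 region, 99.3 kb at chr4:101164982-101264299, covered Jak1, the kinase of cytokine receptors. The next, of 86.9 kb on chromosome 8, lay over an array of 5S ribosomal RNA genes. Those of 83.7 and 71.0 kb lay over Bcl11b and Lef1, transcription factors of T cell identity, and one of 65.8 kb over Znrf1. The megabase with most H3K9me3, from position 147000001 of chromosome 4, had 280 kb under the mark in 39 regions, and its 36 placed genes had a median level of 4.92. The megabase with most H3K4me1, from position 44000001 of chromosome 9, had 263 kb under the mark and holds Cd3d, Cd3e and Cd3g, which encode chains of the T cell receptor complex, and Thy1. Chromosome X had 37 H3K9me3 regions over 0.0332% of its length, while the autosomes ranged between 0.294% on chromosome 14 and 1.13% on chromosome 17. It was low for H3K4me1 too, at 0.776%, where the autosomes ranged between 2.53% on chromosome 18 and 6.04% on chromosome 11. Chromosome Y had 0.0168% under H3K9me3 and 0.0115% under H3K4me1.

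Most genes with H3K9me3 also held H3K4me1. Of 3133 genes with H3K9me3, 84.6% also held H3K4me1 somewhere in their span, and of 14998 genes with H3K4me1, 17.7% also held H3K9me3. With only the peaks that scored at least their list's median, 1203 genes held both and 762 held H3K9me3 only. The marks shared bases in 165 of the 2651 genes with both (6.22%), whose median level was 948, and lay apart in the other 2486, with a median of 384. Genes with both were long, at a median span of 59.7 kb, against 25.9 kb for H3K9me3 only, 16.7 kb for H3K4me1 only and 1.37 kb for neither. The rule asks for 1 bp, and 27 genes held under 100 bp of H3K9me3 (median level 1.16) while 36 had a region within 100 bp outside the gene (median 9.64). For H3K4me1 these were 269 genes (median 1.59) and 72 genes (3.38).

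Genes with H3K4me1 had more RNA than genes without it, and genes with H3K9me3 alone were near silent. The median normalised read count was 400 (399.9) in genes with both marks, 3.33 with H3K9me3 only, 190 (190.3) with H3K4me1 only and 0.905 with neither. A mean of 10 or more, taken as detected, was reached by 80.2%, 19.5%, 73.6% and 10.5% of these classes. For H3K9me3 only the share differed between libraries, at 19.3%, 8.92%, 44.8% and 9.34% in replicates 1 to 4, and averaged 9.13% in replicates 2 and 4, where neither averaged 8.39%. Per kb of gene span the medians were 6.23 with both, 0.0923 with H3K9me3 only, 11.8 with H3K4me1 only and 0.101 with neither. Within each library the class medians were compared as log2(value + 1). H3K9me3 only lay below H3K4me1 only by -6.26 ± 1.63 on that scale (mean ± SD, n = 4), lower in 4 of 4 libraries (exact sign-flip test, two-sided, p = 0.13, the smallest that 4 libraries allow). Per kb the difference was -3.56 ± 0.14, again lower in 4 of 4 libraries. H3K4me1 only lay above neither by 7.17 ± 0.77 in 4 of 4 libraries (exact test, p = 0.13).

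Between genes with H3K9me3 only and genes with neither mark the difference was within the spread of the libraries. It was 0.91 ± 1.05 on the log2 scale (n = 4, exact sign-flip test, p = 0.5), at 1.81 and 1.84 in replicates 1 and 3 and 0 in replicates 2 and 4, in which both medians were 0. Replicates 1 and 3 are also the libraries with reads for most genes, and the part of that in the difference was not tested. It changed with the peaks admitted: when each list was cut to its peaks scoring at least its median, the class with H3K9me3 only grew to 762 genes, with 54.4% detected on average per library (20.6% with all peaks), and lay above neither by 2.89 ± 0.68 in 4 of 4 libraries (exact test, p = 0.13) and below H3K4me1 only by -4.32 ± 1.20. That setting drops weaker H3K4me1 peaks, so genes that hold them leave the class with H3K4me1.

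**Figure D1:**
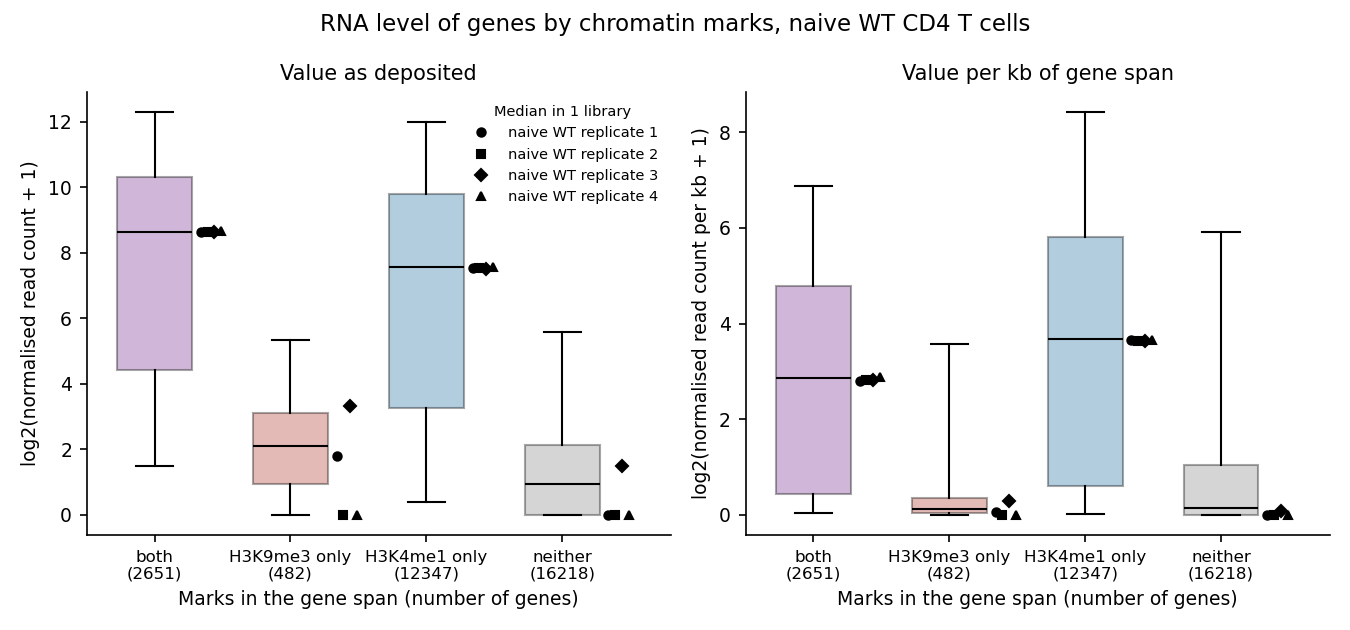
RNA level of genes by chromatin marks in naive WT cells, as log2(normalised read count + 1) on the left and per kb of gene span on the right. Boxes give the median and quartiles over genes of the mean of 4 libraries, whiskers the 5th and 95th percentiles, and black symbols the class median in each library, which for H3K9me3 only is 0 in replicates 2 and 4.

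Whether genes with both marks had more RNA than genes with H3K4me1 only depended on how gene length was treated. As deposited, both lay above H3K4me1 only by 1.10 ± 0.02 on the log2 scale (n = 4, 4 of 4 libraries, exact test, p = 0.13). Per kb of span the order was reversed, at -0.81 ± 0.03. Span includes introns and had a median of 59.7 kb with both and 16.7 kb with H3K4me1 only. Dividing by it thus lowers genes with both more, whatever their RNA. Within 10 classes of gene span the mean difference was 0.05 ± 0.07, positive in 3 of 4 libraries (exact test, p = 0.375). The difference was not the same in every class. At 79.9 kb and over, which holds 1050 of the 2651 genes with both, the median was 497 with both and 93.6 in 1243 genes with H3K4me1 only. It was 363 and 388 at 23.2 to 38.9 kb, 248 and 148 at 4.31 to 8.41 kb, and 9.66 in 18 genes and 102 in 1231 genes at 1.69 to 4.31 kb. H3K9me3 only stayed below H3K4me1 only by -5.03 ± 1.27 over the span classes, and H3K4me1 only above neither by 5.46 ± 0.84, each in 4 of 4 libraries.

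**Figure D2:**
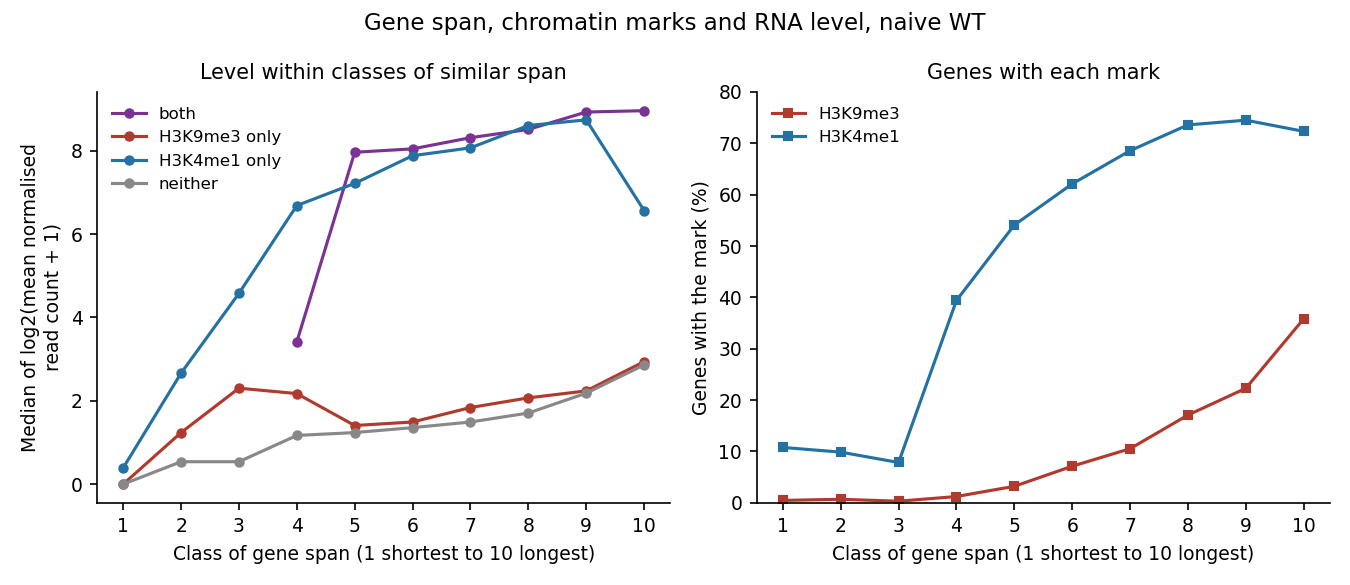
Left, median RNA level as log2(mean normalised read count + 1) in 10 classes of gene span with about equal numbers of genes, for mark classes with at least 10 genes. Right, share of genes with each mark, which for H3K9me3 is 0.473% in the shortest class and 35.8% in the longest.

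Read the other way, the share of genes with each mark was larger at higher RNA levels up to 10000, and H3K9me3 without H3K4me1 was rare there. H3K9me3 was present in 1.76% of 6777 genes with no read, 6.67% of those above 0 and under 10, 12.8% between 10 and 100, 16.9% between 100 and 1000 and 21.4% of 3576 genes between 1000 and 10000. H3K4me1 was present in 9.22%, 26.5%, 67.9%, 92.0% and 96.4% of the same classes and in 81.3% of 219 genes at 10000 or more. Of the genes with H3K9me3, the share that lacked H3K4me1 was 63.9% among genes with no read and 0.522% between 1000 and 10000. Median span also differed between these classes, at 0.869 kb with no read and 29.3 kb between 1000 and 10000.

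The amount of H3K4me1 went with level up to a point. The median was 9.10 in 730 genes with under 1% of their span under H3K4me1, 391.9 at 10 to 25% and 559 at 50 to 75%. At 75 to 100% it was 27.5, in 1119 genes with a median span of 0.679 kb. For H3K9me3 the medians ran between 129 and 356 in all classes of share up to 75%, and the 58 genes with more than 75% of their span covered had a median of 4.84 and a median span of 0.859 kb.

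Around start sites the marks took shapes that differed with RNA level. At genes with a mean of 1000 or more, H3K4me1 covered 39.4% of bases at the start, with a peak of 61.7% at 0.5 kb before and of 78.8% at 1.1 kb after it. At genes between 10 and 1000 the trough was slight, with 58.6% at the start and 67.4% at 0.7 kb after, and at genes under 10 there was a single low peak of 15.01% at the start. At 9 to 10 kb from the start the H3K4me1 shares of these classes were 16.0%, 8.14% and 2.99%. H3K9me3 was depleted at starts of every level: it covered 0.269%, 0.226% and 0.0760% of bases at the start for genes under 10, between 10 and 1000 and at 1000 or more, and 0.819%, 1.39% and 1.35% at 9 to 10 kb.

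**Figure D3:**
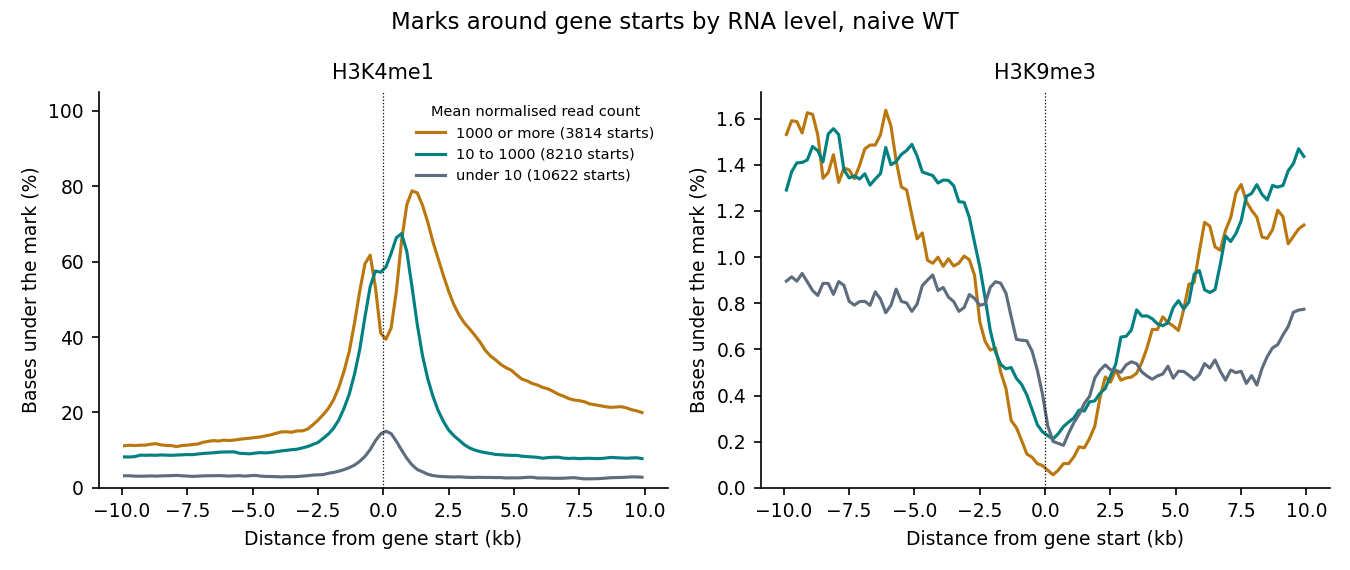
Share of bases under H3K4me1 (left) and H3K9me3 (right) in bins of 200 bp around annotated gene starts, by mean normalised read count in naive WT. H3K4me1 dips at the starts of genes at 1000 or more and flanks them on both sides, and H3K9me3 is lowest near the start; the vertical scales differ.

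Genes of T cell identity lay under wide H3K4me1. All 20 measured genes of T cell receptor signalling held it, with a median of 62.4% of the span covered, and 15 of 16 naive and quiescent T cell genes did, with a median of 57.5%. The medians of these lists were 8362 and 9049 normalised reads, where the median of all placed genes was 4.45. Of all placed genes 47.3% held H3K4me1, with a median of 11.3% of the span covered where present. Among genes between 1000 and 10000 normalised reads these were 96.4% and 15.1%, and at 10000 or more 81.3% and 45.1%. Cd4, the co-receptor, had 16477, 17230 (17229.7), 16940 (16939.9) and 15153 normalised reads in the 4 naive WT libraries, or 698 per kb, with 37.9% of its 23.6 kb under H3K4me1. Tcf7, which encodes the transcription factor TCF1, had 13694, 15823, 12718 and 13875, or 381 per kb, with 74.1% covered. In both genes the libraries lay close together, and neither held H3K9me3, which was present in 4 of the 16 naive and 5 of the 20 receptor signalling genes. It was present in 9.88% of all placed genes and in 21.4% of those between 1000 and 10000. Foxp1, a transcription factor that keeps T cells quiescent, held the most H3K4me1 of any gene, 234 kb in 47 regions, and Bach2, a repressor of effector genes, held 182 kb. They also held 3350 and 4200 bp of H3K9me3. Their levels were 7786 ± 152 and 1534 ± 113 (SD, n = 4), or 13.03 and 4.41 per kb. Klf2, which controls exit from lymphoid organs, had 2490.3 ± 451 normalised reads with neither mark in its span of 2.59 kb, and was named after its values were seen. Junb, a subunit of AP-1, likewise had neither in 1.84 kb and read 9272, 5692, 4188 and 3491.

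H3K4me1 was also present on genes of other T cell fates, several of which had little RNA. Of 19 Th1 genes 18 held it, of 12 regulatory T cell (Treg) genes 12, of 11 follicular helper (Tfh) genes 11, of 18 Th2 genes 11 and of 11 Th17 genes 7, where 47.3% of all placed genes held it. Other lists held it as widely, among them all 21 cell cycle genes and all 21 placed genes of H3K9 methylation. Tbx21, which encodes the Th1 regulator T-bet, had 0.934 kb of H3K4me1 and read 3.74, 2.74, 9.05 and 0 in the 4 naive WT libraries. Il12rb2, a chain of the IL-12 receptor, held 13.9 kb in 7 regions and read 11.2, 9.59, 43.5 and 6.61. Il2ra, the high-affinity chain of the IL-2 receptor, held 15.1 kb and read 32.4, 15.1, 34.4 and 23.6. All 4 libraries were low for these genes, and for Il12rb2 replicate 3 stood above the rest. Gata3, the Th2 regulator that T cells also need earlier, held 18.2 kb and read 603 ± 71.2, or 19.5 per kb. The cytokine genes Il4, Il5, Il13 and Ifng held neither mark in their spans. Il4 and Il13 were at 0 in every naive WT library, and Il5 and Ifng had reads only in replicate 3. None of the 18 Th2 genes held H3K9me3, a mark on 9.88% of all placed genes.

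Among marker genes of other blood lineages, 5 of 9 myeloid genes, 5 of 8 placed B cell genes and 8 of 10 erythroid and platelet genes held neither mark. Of all 31698 placed genes 16218 held neither, and the myeloid and B cell shares lie near that. The erythroid and platelet genes were short, with a median span of 1.48 kb, where genes with neither mark had 1.37 kb. H3K4me1 was present in 4, 2 and 2 genes of these lists, and H3K9me3 in 1, the B cell gene Pax5. Among those with H3K4me1, Spi1, which encodes the myeloid regulator PU.1, had 6.48 kb of H3K4me1 and read 5.23 ± 4.14 (SD, n = 4), and Cd79a, a chain of the B cell receptor, was covered over 100% of its 4.36 kb while it read 2.49, 27.4, 0 and 0.945, with replicate 2 above the others. B cell and myeloid marker sums of these libraries are given above, and the part of such cells in the marks was not tested. In bulk samples like these, fewer cells of a type and less RNA per cell cannot be told apart. Large families with no known role in T cells mostly held neither mark: 1232 of 1244 olfactory receptor genes, 512 of 526 vomeronasal receptor genes and 39 of 43 beta-defensin genes. Their median spans were short, at 0.948, 0.949 and 3.24 kb. Of all 3170 placed genes of 0.907 to 1.69 kb 2911 held neither, and of 3169 genes of 1.69 to 4.31 kb 1899 did. Histone genes, with a median span of 0.502 kb, held H3K4me1 in 66 of 83 cases and H3K9me3 in none. Among all placed genes of 0.133 to 0.906 kb these shares were 9.87% and 0.694%.

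**Figure D4:**
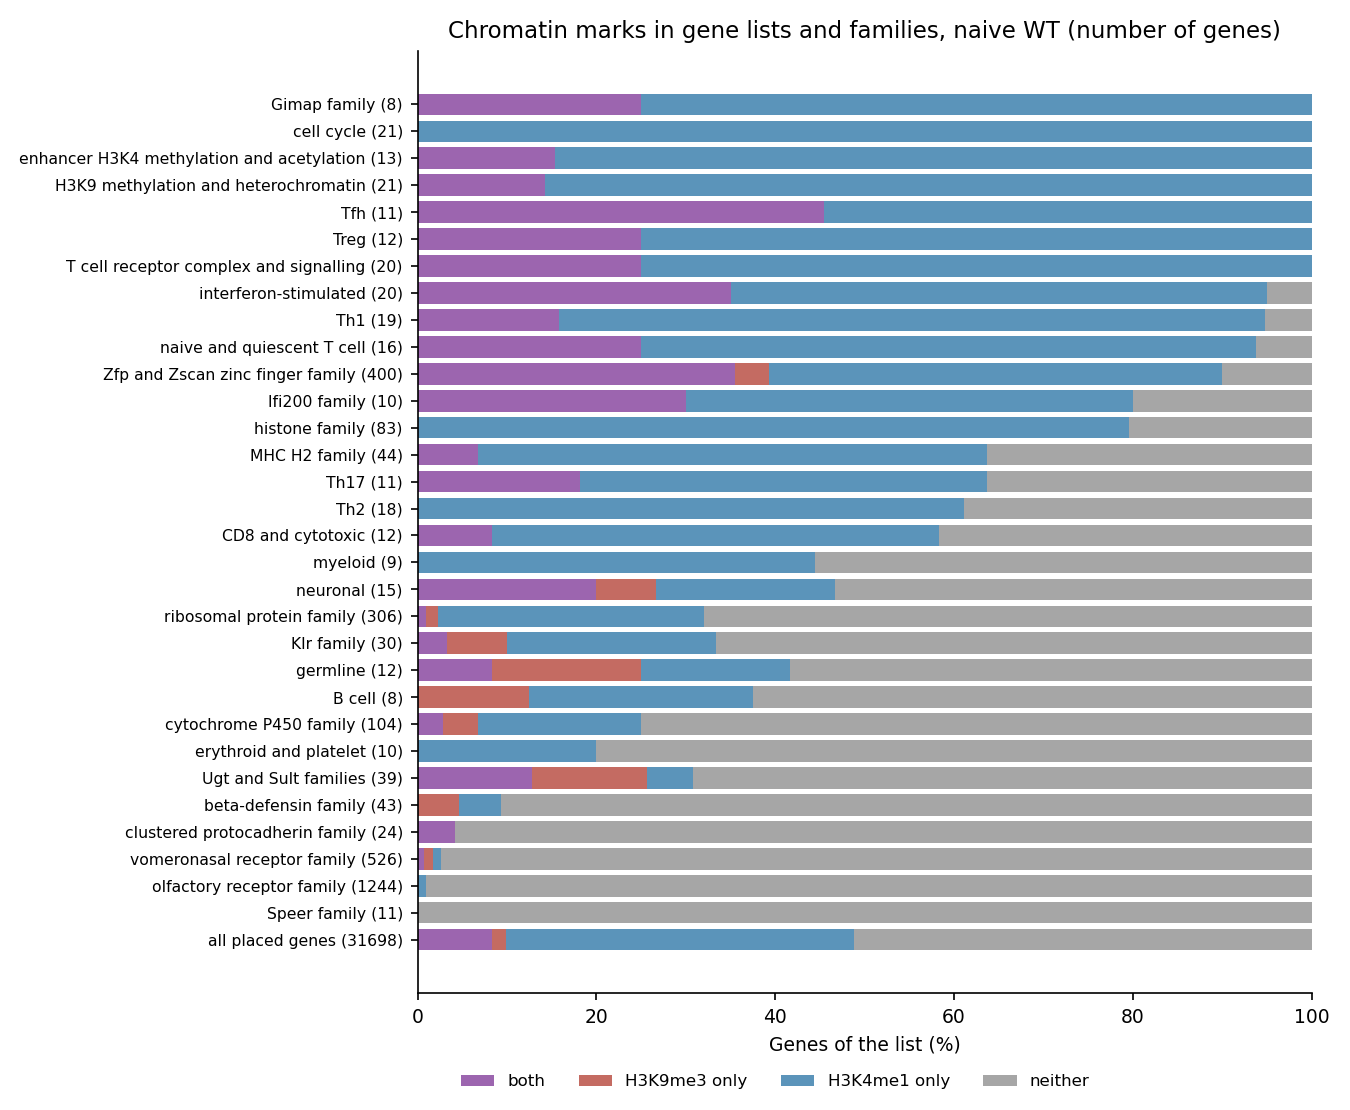
Share of genes with both marks, H3K9me3 only, H3K4me1 only or neither in gene lists and families, ordered by the share with H3K4me1, above all placed genes. The zinc finger family has H3K9me3 in 39.3% of 400 genes, against 9.88% of all placed genes.

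A small set of genes carried H3K9me3 without H3K4me1 and was nonetheless well expressed. At a mean of 500 or more there were 7 such genes, 4 of them protein coding. The other 3 were pseudogenes, whose reads can be shared with the parent gene, and 1 of these, Rpl14-ps1, met the mark by 1 bp. Ddx3y, a Y-linked RNA helicase, read 5617, 4466, 7141 and 6245 in the 4 naive WT libraries with 3.05 kb of H3K9me3. Ide, which encodes insulin-degrading enzyme, read 1604, 1345, 1416 and 1370 (1369.9) with 2.80 kb. Eif4enif1, which carries the translation factor eIF4E into the nucleus, read 1336, 1403, 1445 and 1414 with 1.15 kb, and Phf11c read 629, 796, 902 and 737 with 0.85 kb. No library fell below 500 for any of the 4, and the mark covered between 2.72% and 11.8% of their spans. At the other end, Zfp936 held 38.6 kb of H3K9me3 in 7 regions, 49.5% of its span, and read 8.73, 0, 10.9 and 0. Gm13154 was covered over 94.8% of 31.9 kb and read 14.97, 5.48, 32.6 and 0. For both, the reads came mainly from replicates 1 and 3.

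Among genes with both marks some combined broad H3K9me3 with high RNA. Actb, which encodes beta-actin, had the highest level, 112827 ± 7796 (SD, n = 4), with 1.40 kb of H3K9me3 and 2.53 kb of H3K4me1 in 4.86 kb. Gimap4, a GTPase of lymphocyte survival, had 44094 ± 3645 with H3K4me1 over its full 7.49 kb and H3K9me3 over 15.5%. Slfn2, which maintains T cell quiescence, read 21607, 21112, 23427 and 19078 with 59.8% of its span under H3K9me3 and 61.4% under H3K4me1. Tug1, a long noncoding RNA, read 3738, 3351, 3196 and 3664 with 87.1% under H3K9me3 and 8.70% under H3K4me1. Both genes were high in all 4 libraries. Hjurp lay entirely inside the 82.9 kb H3K9me3 region, with 39.3% of its span and its start also under H3K4me1, and read 2455, 3015, 2582 and 2846. Its neighbour Mroh2a in the same region, with 11.6% under H3K4me1 but none at its start window, read 72.3, 11.0, 118 and 12.3. Per kb of span the pair had 145 and 1.51.

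At start sites H3K9me3 was rare, and genes with it there had less RNA than genes with H3K4me1 only there. Of 18612 genes with a RefSeq start window, 61 had H3K9me3 only in it, 22 had both marks, 7487 had H3K4me1 only and 11042 had neither. The median levels were 4.53, 14.9, 252 and 3.17. In replicates 2 and 4 the medians for H3K9me3 only and for neither were both 0. The median number of CG per window was 5, 25, 19 and 6, and 10 or more were found in 38.0%, 93.3%, 80.4% and 40.2% of windows, against 55.7% of all. Windows with neither mark had a median of 21 CG at genes with a mean of 10 or more and 4 at genes under 10. With H3K4me1 only these were 20 and 17. The part of RNA level in the CG counts was not tested. Of the windows printed above, those of Trpm8 and Peg3, with 1 and 13 CG, belong to the first class, those of Hjurp and Stag3, with 22 and 30 CG, to the next, and that of Lef1, with 5 CG, lay under H3K4me1 only. Genes with H3K9me3 in a start window and a mean of 500 or more were 6: Hjurp, Ipcef1, Zranb2, Pdzd8, Klhl5 and Pfdn2. Of these, Ipcef1 read 6151, 7240.1, 6808 and 7016, and Zranb2, whose own span held no H3K9me3, read 3592, 4055, 4668 and 5081. Stag3 read 17.5, 28.8, 41.6 and 4.72, Peg3 read 17.5, 0, 45.3 and 0, and Trpm8 read 19.96, 0, 32.6 and 0.945, each highest in replicate 3.

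Of the gene families listed, zinc finger genes had the largest share with H3K9me3. These genes encode DNA-binding proteins, many with a KRAB domain that recruits TRIM28 and SETDB1, and 157 of 400 placed Zfp and Zscan genes (39.3%) held the mark, against 9.88% of all placed genes. At equal span the gap remained: 45.4% of 163 family members of 10 to 20 kb against 7.63% of 3618 other protein-coding genes, and 49.5% of 109 members of 20 to 40 kb against 15.2% of 3749. At 40 kb and over the shares were 41.5% and 29.8%. Of the 157 genes, 142 also held H3K4me1. Family members with H3K9me3 had a median level of 360 (359.9), and those without 143; with H3K9me3 only, 15 genes had a median of 3.82.

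The mark lay at the far end of these genes. In 131 family members with H3K9me3 and a known strand and a span of at least 5 kb, H3K9me3 covered 0.785% of the first 10% of the gene and 46.5% of the last 25%, while H3K4me1 covered 52.7% of the first 10%. H3K9me3 touched the last 25% in 72.5% of them, against 35.4% of 2303 other genes with H3K9me3, in which it covered 2.28% of the first 10% and 5.87% of the last 25%. Zfp873 had H3K9me3 over 72.5% of 29.6 kb and read 237, 182, 214 and 256. Zfp292 had 5.38% covered and read 5755, 5667, 6558 and 8146. The 4 libraries were of one order in each gene, and per kb the levels were 7.496 and 81.8.

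**Figure D5:**
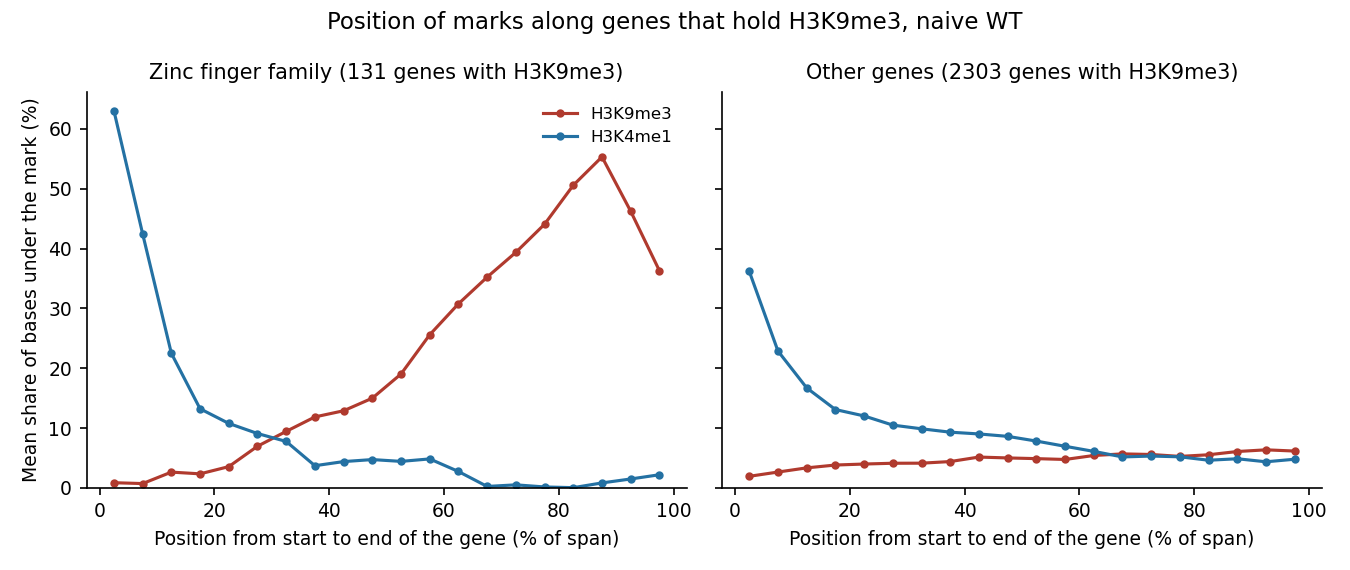
Mean share of bases under H3K9me3 and H3K4me1 in 20 equal parts of the span, from start to end, for zinc finger genes (left, 131) and other genes (right, 2303) that hold H3K9me3. In zinc finger genes H3K4me1 lies at the start and H3K9me3 toward the end, where it covers 46.5% of the last 25%.

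The naive WT regions were set against the authors' lists from the other cells, 1 list per group, made from 1 library for naive KO and from 2 for the others. Of the 9659 H3K9me3 regions 746 (7.72%) met a region of the naive Setdb1 KO list, and 756 of the 1163 KO regions (65.0%) met one of naive WT. Long regions were met far more often, 83 of 92 of those of 10 kb or more (90.2%). The 82.9 kb region with Hjurp was in the KO list over its whole length. Of 3133 genes with H3K9me3 in naive WT, 326 (10.4%) held a region of the KO list, and 76 of these were zinc finger genes. In the Th2 WT lists, 5254 H3K9me3 regions (54.4%) and 32701 H3K4me1 regions (78.5%) of naive WT were met, and 43.1% and 56.3% of the Th2 regions met one of naive WT in turn.

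Loss of Setdb1 in naive cells was compared to ask how the genes of each mark class differ in RNA between genotypes. In limma over all 18 RNA libraries, 270 of 2380 tested genes with both marks were higher in naive KO (11.3%), where 7.43% of all 17254 tested genes were higher. The shares were 0.562% with H3K9me3 only (1 of 178, Tdrd9), 8.83% with H3K4me1 only and 1.70% with neither. Lower in KO were 3.11% with both, 2.25% with H3K9me3 only, 3.78% with H3K4me1 only and 3.42% with neither, where 3.45% of all tested genes were lower. Differences between classes were not tested. Without WT replicates 1 and 3 and KO replicate 2, the 3 naive libraries with reads for the most genes, 5.69% with both and 5.52% with H3K4me1 only were higher, and 3.42% with H3K9me3 only (4 of 117), where 4.75% of all tested genes were higher. Lower were 1.10%, 1.39% and 1.71% of these classes, and 1.27% of all tested genes. With naive KO and naive WT libraries alone in the fit, 2.82%, 2.07% and 0.562% were higher, and 1.73% of all tested genes. Lower in that fit were 1.18%, 0.590% and 1.12%, and 0.632% of all tested genes.

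Genes with H3K9me3 that rose most in naive KO cells included Tdrd9, Cacna1b and Stag3, which were low or silent in WT. Tdrd9, which encodes a helicase that acts with piRNAs in the germline, with 5.20 kb of H3K9me3, read 564, 329 and 314 in naive KO libraries, against 0 in all 4 naive WT libraries. Taking 3 reads in a library as the least that could be told from none (counting error only), this was at least 99.8-fold higher (limma, adjusted p = 1.79e-09). Cacna1b, a neuronal calcium channel with 3.55 kb, read 1167, 1170.0 and 887 in KO, against 14.97, 0, 19.9 and 0.945 in WT (log2 difference 7.72 ± 0.94, limma, adjusted p = 1.55e-05). Stag3, the meiotic gene whose start window was printed above, read 242, 336 and 322 in KO, against 17.5, 28.8, 41.6 and 4.72 in WT (3.96 ± 0.48, limma, adjusted p = 1.33e-05). Genes of this kind were named only where the groups did not overlap, so the gap itself is no support; each was called in all 16 alternatives.

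Other genes with both marks moved in each direction. Drc1, a subunit of the ciliary dynein regulatory complex, read 1545, 1536 and 2030.3 in KO, against 129.7, 112, 67.0 and 65.2 in WT (4.23 ± 0.61, limma, adjusted p = 0.000111). Zfp365 averaged 972 ± 134 (SD) in KO and 176 ± 26.0 in WT (log2 difference ± standard error 2.46 ± 0.17). Ptprs, a receptor phosphatase, averaged 469 ± 63.1 in KO and 85.6 ± 12.6 in WT (2.44 ± 0.15). Lower in KO were Epas1, which encodes the hypoxia factor HIF-2 alpha, at 60.7, 94.4 and 36.7 against 332, 269.9, 284 and 263 in WT (-2.25 ± 0.29, limma, adjusted p = 2.94e-05), and Rnf43, a Wnt pathway ubiquitin ligase (-1.81 ± 0.38, limma, adjusted p = 0.00392). These 5 were named by the same rule and were called in all 16 alternatives. Among genes that met it, with a mean of at least 50 in 1 group, Pde2a had the largest fall, -3.65 ± 1.00 (limma, adjusted p = 0.0227), but the call was lost in 6 of 16 alternatives. Hjurp averaged 2656 ± 397 in KO and 2724 ± 253 in WT (limma, adjusted p = 0.867). Of the broadly covered genes Slfn2 was lower in KO, at 8084, 10730 (10729.6) and 15100 (15099.8) against 21607, 21112, 23427 and 19078 in WT (-0.96 ± 0.15, limma, adjusted p = 0.00025, lost in 1 alternative). Il2ra, with H3K4me1 only, read 173, 159.6 and 139 in KO, against 32.4, 15.1, 34.4 and 23.6 in WT, with no overlap (2.59 ± 0.19, limma, adjusted p = 2.07e-08).

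Culture to Th2 cells was compared to see how the same classes stand in activated cells. It shares its naive WT libraries with the comparison of genotypes. Of tested genes with both marks, 46.1% (1097) were lower and 28.1% (669) higher in Th2 WT, where 33.1% of all tested genes were lower and 32.8% higher. With H3K4me1 only the shares were 34.4% lower and 37.1% higher, with neither 19.08% and 27.9%, and with H3K9me3 only 19.7% (35 of 178) and 14.0% (25). Median log2 differences were -0.40 with both, -0.97 with H3K9me3 only, 0.00 with H3K4me1 only and -0.27 with neither, and -0.14 over all tested genes. In both comparisons a gene was tested for its level in at least 2 libraries of any group, so naive WT libraries alone could admit it. This rule admitted 178 genes with H3K9me3 only, and 117 when the 3 naive libraries with reads for the most genes were left out. The part of the rule in the median of that class was not tested. Without the same 3 libraries, 44.4% with both were lower and 30.0% higher, while with H3K9me3 only 18.8% were lower and 29.1% higher (34 of 117), where 31.9% of all tested genes were lower and 35.5% higher. With only the Th2 WT and naive WT libraries in the fit, H3K9me3 only had 14.6% lower and 7.87% higher, so the order of its shares differed between settings; over all tested genes these were 29.9% and 30.5%. Differences between classes were not tested.

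Naive WT genes with both marks that fell most in Th2 cells included interferon-inducible genes of the Ifi200 family. Pydc3 and Pydc4 had no read in any Th2 WT library, against 4548, 6566, 7056 and 5205 for Pydc3 and 2800.4, 5154, 5354 and 6071 for Pydc4 in naive WT. Against the floor of 3 reads per library they were at least 918-fold and 761-fold lower in Th2 WT. Mndal, of the same family, averaged 4.81 ± 2.71 in Th2 WT and 5270.0 ± 1161 in naive WT (-9.92 ± 0.32, limma, adjusted p = 1.3e-15). These are related genes, and reads could be split between copies. Txk, a Tec family kinase of naive T cells, read 2.02, 0 and 9.98 in Th2 WT, against 2737, 2349, 2703 and 2601 in naive WT (-9.66 ± 0.51), and Tox, a regulator of T cell development, 2.02, 0 and 0 against 847, 1086, 1045 and 915 (-9.39 ± 0.41). These 5 genes were again named only where the groups did not overlap, and all were called in all 16 alternatives.

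Genes with H3K9me3 that rose in Th2 cells included Batf3, a transcription factor of the AP-1 family. It held 1.00 kb of H3K9me3 and 0.367 kb of H3K4me1 in naive WT and read 1621, 1583 and 1417 in Th2 WT, against 0 in all naive WT libraries, at least 382-fold higher against the floor. Gatm, an enzyme of creatine synthesis, averaged 3719 ± 316 in Th2 WT and 2.49 ± 4.99 in naive WT (10.99 ± 0.64, limma, adjusted p = 1.09e-11). Cdh17, a cadherin with 3.35 kb of H3K9me3 and no H3K4me1, read 1424, 1627 and 1681 in Th2 WT, against 6.24, 0, 47.1 and 0 in naive WT (8.51 ± 1.03, limma, adjusted p = 4.9e-07). Among genes without either mark, Il4 and Il13, at 0 in naive WT, averaged 1957 ± 209 and 2560.3 ± 381 in Th2 WT (SD, n = 3), at least 486-fold and 635-fold higher. Il2ra, low in naive WT under 15.1 kb of H3K4me1, averaged 23540.3 ± 360.4 in Th2 WT and 26.4 ± 8.88 in naive WT (9.81 ± 0.19, limma, adjusted p = 2.77e-18). Foxp1 averaged 239 ± 14.7 in Th2 WT and 7786 ± 152 in naive WT (-5.02 ± 0.12, limma, adjusted p = 2.31e-17). All of these were called in all 16 alternatives.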

How the data were processed

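RNA of 18 libraries and peak lists of 2 histone marks were used. RNA values were the authors' deposited signal: reads counted in a gene, scaled by the library's size factor, with TopHat2 2.0.5, cutadapt 1.3, BWA 0.7.10, MACS2 2.1.0, DESeq and mm10 named in the submitters' processing notes. Whole reads were recovered from 100.0% of values in every library within a tolerance of 0.01. H3K4me1 lists hold MACS2 values per the file layout: a deposited score (10 times the −log10 q-value), a deposited ratio (fold enrichment) and a deposited −log10 q-value per peak. The deposited H3K9me3 score has a scale, caller and pooling not given in the sources used here, and scores only ranked regions within a list. H3K4me1 peak names say that replicates were merged before calling.

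Of 39179 genes, each in 2 identical copies of which 1 was used, 31698 were placed on GRCm38.p6 by RefSeq symbol (29520) or synonym (2178), with 97.8% of the naive WT value. Levels per kb use the whole gene span, introns included, because exon lengths were not used here. Differential RNA was fitted with limma 3.58.1 on log2(value + 1), with an intensity trend, over 18 libraries, for genes at 10 or more in at least 2 libraries, with Benjamini-Hochberg adjustment at 0.05. Log2 differences from limma are given ± the standard error of the fit, and mean reads ± SD over libraries. Fold changes on this scale understate low genes. On simulated data 88.0% and 100.0% of genes changed by 1 and 2 log2 units were recovered for naive KO, and 78.0% and 100.0% for Th2. Of all calls on these data, 17 of 205 for naive KO and 23 of 201 for Th2 were of unchanged genes. Low genes were not among those changed, and all libraries shared 1 spread at each level, so differences in spread between libraries were not simulated. edgeR 4.0.16 and DESeq2 1.42.0 on the recovered counts, from deposited values, were alternatives, beside other thresholds, overlaps, pseudocounts, filters and left-out libraries. Class medians were compared within each library with an exact sign-flip test in Python 3.11.15 (scipy 1.17.1). No 2 naive WT libraries agreed within sampling noise (chi-square per degree of freedom 18.1 to 36.4).

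Named genes were a fixed set of T cell and H3K9 methylation genes, the 10 highest per mark class, the 10 with most bp and the largest share of each mark, up to 4 per gene list, the 10 largest changes each way among called genes with H3K9me3 and no overlap, and genes with H3K9me3 at the start and a mean of 500 or more. Members, lists and rules were chosen with earlier results of these data known. The result of 1 gene is not reported here.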

Additional observations from a re-analysis of the deposited data

Results flagged for a closer look

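In 9 of 72 groups of 4 naive WT libraries tested, 1 library stood apart, with a gap above Dixon's critical value for 4 samples. For continuous, normal values chance gives about 1 in 20. Where all other libraries are at 0, as for Il5, Ifng, Gatm and the genes with neither mark, the gap is 1.0 of the range whatever the value. That rate therefore does not apply to counts near 0, and 9 of 72 cannot be set against it. Replicate 3 was the high library in 5 of the 9: Il12rb2 at 43.5 with the next at 11.2, Cdh17 at 47.1 with the next at 6.24, Il5 at 3.62 and Ifng at 1.81 with the others at 0, and the median level of genes with neither mark, at 1.81 with the others at 0. Replicate 1 was high for Jak1, at 18636 with the next at 18032, and for Gatm, at 9.98 with the others at 0. Replicate 2 was high for Cd79a, at 27.4 with the next at 2.49, and replicate 4 for Foxp1, at 8011 with the next at 7732.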

How the results depend on the processing

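Of the values that answer a comparison, 157 stayed on their side or within the spread under the alternatives, 31 moved and 2 were reversed. The 2 reversals were of genes with both marks against H3K4me1 only, at -4.34 with marks counted in start windows alone and -0.81 per kb of span. With peaks at or above the median score, 1203 genes held both marks and 762 H3K9me3 only, 65 H3K9me3 and 68 H3K4me1 regions met the other mark, and 393, 2263 and 9423 naive WT regions met the naive KO H3K9me3, Th2 H3K9me3 and Th2 H3K4me1 lists; 54.4% of genes with H3K9me3 only and 26.8% with neither were then detected, as means over libraries like the shares that follow. In start windows 22 genes held both, 61 H3K9me3 only and 7487 H3K4me1 only. With 500 bp shared, 95 and 100.0 regions met the other mark, and 78.9% of genes with H3K4me1 only were detected. A minimum of 1 gave 88.5%, 43.2%, 84.2% and 29.6% detected with both, H3K9me3 only, H3K4me1 only and neither, and a minimum of 50 gave 69.9% with both, 61.6% with H3K4me1 only and 4.98% with neither. H3K9me3 only minus neither was 0 in replicates 2 and 4 alone.

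Genes higher in naive KO numbered 298 and lower 109 with the 2 groups alone in the fit, and 762 and 203 without the libraries that stood apart. Leaving out each library gave 757 to 1663 higher and 320 to 834 lower; without KO replicate 1 there were 807 and 371, and without KO replicate 2, 757 and 320. edgeR called 1403 and 521, DESeq2 1678 and 882. The cause was not tested. Th2 counts moved by less than 1.5 times, with 5322 to 5752 higher and 5340 to 6076 lower when each library was left out. Same-numbered libraries did not deviate together (r between -0.411 and 0.0121), and with the replicate number as a block the counts were 1134 higher and 641 lower in KO, and 5472 and 5870 in Th2. Of the calls of named genes, 54 were lost and 13 gained over all KO alternatives, and 5 and 17 over those of Th2. Depth limits values near 0, where 3 reads equal about 4.03 normalised reads in naive WT.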
